A study of Homo sapiens with 8 samples.

Results

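The 38 genes examined here encode the enzymes and carriers that make, salvage and import nucleotides: the purine and pyrimidine synthesis enzymes, their folate suppliers, the deoxynucleotide (dNTP) enzymes, the salvage and nucleotide kinases, and the folate and nucleoside transporters. They were chosen by name from knowledge of the pathways, with earlier results of these data known but no measured value in the rule, and all 38 were found by symbol among the 63129 genes of the table. Of these, 35 had a mean of at least 1 RPKM over all 8 libraries and were among the 14732 genes tested. RPKM divides the reads of a gene by its length and by the size of the library, so it is a level per length and can be compared between genes. PAICS, a purine synthesis enzyme, lacked a value in 3 of 8 libraries and stayed out of the test. CTPS2 and SLC29A2 were listed at means of 0.0715 and 0.0349 RPKM and were too low to test. GART has a further row on an alternate contig of chromosome 21, which was listed at 0 in every library and was not used.

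LP-1 cells are an established line from a human plasma cell cancer, multiple myeloma, and RNA was sequenced from whole cultures after 6 hr of treatment. The design asked how the transcriptional response to SGC-CBP30, which inhibits the bromodomains of the acetyltransferases CBP and EP300, compares with that to CPI203, which inhibits the bromodomains of the BET family. The libraries carry 2 naming series, called experiments here, although the labels do not say what a series shares. In the first experiment 2 libraries came from cells given DMSO alone and 2 from cells given 2.5 μM SGC-CBP30. In the second 2 came from cells given DMSO alone and 2 from cells given 0.25 μM CPI203. All 8 libraries come from unmodified LP-1 cells at 1 dose and 1 time per compound, so neither the doses nor the experiments are matched between the compounds.

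Purine rings are built stepwise on phosphoribosyl pyrophosphate (PRPP) until inosine monophosphate (IMP) is formed, which is then turned into AMP or GMP. Pyrimidine rings are closed first and joined to PRPP afterwards, giving UMP and then the other pyrimidines. Folate cofactors carry the carbon units that the purine ring and thymidylate need. Ribonucleotide reductase converts ribonucleotides to deoxyribonucleotides for DNA synthesis and repair, and salvage enzymes recover bases and nucleosides that are already formed. Many of these genes carry E-box sequences and are known MYC targets in proliferating cells, and several dNTP genes are known E2F targets expressed in S phase.

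Depth estimated from the steps of low values was 34500000 and 34100000 reads with DMSO and 50100000 and 46800000 with SGC-CBP30. The SGC-CBP30 libraries were thus deeper than their DMSO libraries. In the CPI203 experiment depth was 28900000 and 26600000 with DMSO and 26000000 and 29700000 with CPI203. The summed RPKM per library was 484019 to 501281. All 9 plasma cell markers were expressed, at means of 27.0 to 420.9 RPKM, although 5 of them were lower by the calling rule below with CPI203 and 3 with SGC-CBP30. Of 13 markers of other cells, 2 were at 0 in every library and only HBB reached a mean of 1 RPKM. The summed level of these 13 was 1.44 to 2.06 RPKM in the SGC-CBP30 experiment, 4.27 and 4.49 with DMSO in the CPI203 experiment, and 2.97 and 2.42 with CPI203. MYC, a transcription factor, measured 281 and 296 RPKM with DMSO and 217 and 193 with SGC-CBP30, and 247 and 240 with DMSO and 31.5 and 30.9 with CPI203. IRF4, a plasma cell transcription factor, measured 215 and 211 RPKM with DMSO and 86.2 and 79.5 with SGC-CBP30, and 228.2 and 227.8 with DMSO and 203 and 202 with CPI203. The part of MYC, IRF4 or the marker genes in the results below was not tested.

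Promoter sequence is shown because 2 kinds of short words are commonly searched in these genes, the E-box CACGTG and the E2F words TTTCCCGC, TTTGGCGC, TTTCGCGC and TTTGCCGC. RefSeq promoter windows of the GRCh38.p14 build reached from 250 bases before to 50 bases after a transcription start. They were matched for 34 of 38 members, all but ADSL, IMPDH2, RRM2B and SLC29A2. ADSS was matched by its alias ADSS2 and the others by symbol. All tested genes, used for comparison below, were matched by symbol alone. Both strands were read. CACGTG was present for 9 of 34 members, or 26.5%, and for 13.1% of the 8419 tested genes with a window. Counted by window, it was present in 9 of 54 member windows (16.7%) and in 7.2% of all 34796 windows of distinct sequence. Each line below gives 30 bases in the sense of the gene, with CACGTG in capitals. The PPAT and PAICS lines hold the same 6 bases, read from either strand of the promoter that lies between these genes.
DHODH, chr16:72008573-72008602, plus strand: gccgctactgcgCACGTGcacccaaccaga
PPAT, chr4:56435780-56435809, minus strand: aacggagatttcCACGTGcagcaaatacag
PAICS, chr4:56435772-56435801, plus strand: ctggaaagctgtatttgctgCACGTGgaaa
ATIC, chr2:215312001-215312030, plus strand: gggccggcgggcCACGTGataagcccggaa
ATIC, chr2:215312076-215312105, plus strand: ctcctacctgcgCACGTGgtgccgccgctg
MTHFD1, chr14:64388326-64388355, plus strand: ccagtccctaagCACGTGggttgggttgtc
SLC19A1, chr21:45541797-45541826, minus strand: ttcgcgcccaggCACGTGttgcttcgggac
DCK, chr4:70993521-70993550, plus strand: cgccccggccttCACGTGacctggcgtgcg
NME1, chr17:51153579-51153608, plus strand: caagtgctgcgaacCACGTGggtcccgggc
SLC29A1, chr6:44219365-44219394, plus strand: cagtgCACGTGctcccaggtctcagggagg

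An E2F word was present for 6 of 34 members, or 17.6%, and for 7.09% of the tested genes with a window. The corresponding shares of windows were 11.1% for the members and 3.3% for all windows. The 6 members were PRPS2, GART, SLC19A1, TYMS, DUT and DCK. The lines for TYMS and DUT, which serve thymidylate synthesis, and for GART and SLC19A1, which serve purine synthesis, are given with the word or its reverse complement in capitals.
TYMS, chr18:657603-657632, plus strand: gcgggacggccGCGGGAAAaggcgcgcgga
DUT, chr15:48332144-48332173, plus strand: gggcggggctgGCGGGAAAtttcggttttg
DUT, chr15:48332159-48332188, plus strand: gaaatttcggtTTTGGCGCgctccctgcgg
GART, chr21:33542338-33542367, minus strand: agcatTTTGGCGCtcccccccggcgctcct
SLC19A1, chr21:45541937-45541966, minus strand: tgtgcagcgggTTTCCCGCcgctcgctttc

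A match is a description of the letters and does not show that a factor binds there.

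CPI203 lowered most of the synthesis genes and raised the small subunits of ribonucleotide reductase. Genes were called where the adjusted p was under 0.05 and the change was at least 1.5-fold, which is 0.585 on the log2 scale. With CPI203, 13 of 35 members were called lower, where 14.4% of all tested genes were, and 2 were called higher, where 13.4% were. By the adjusted p alone, 25 members fell, against 33.1% of all genes, and 4 rose, against 31.1%. The other 6 (IMPDH2, TYMS, DCK, GUK1, CMPK1 and NME2) did not pass the test. The median log2 fold change of the members was -0.46, and that of all tested genes was -0.015. Both CPI203 libraries lay below both DMSO libraries for 25 members and above them for 5, where the same held for 41.7% and 39.2% of all genes. With all 4 DMSO libraries as controls 17 members were called lower, and the share of all tested genes was not counted there. UMPS, CTPS1, MTHFD1, DTYMK and ADA gained the call and ADSL lost it. The 3 members that no longer passed the adjusted p were RRM1, HPRT1 and TK1. In RNA from whole cultures, fewer cells expressing a gene and less of its RNA per cell cannot be told apart.

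SGC-CBP30 changed few of the same genes by 1.5-fold, and few of all tested genes. With this compound 2 of 35 members (5.71%) were called lower, where 3.79% of all tested genes were. In the other direction 0 were called higher, where 3.47% of all tested genes were. These shares lie close together, so the counts do not set the members apart from other genes. By the adjusted p from limma alone, 8 members fell, against 14.8% of all genes, and 8 rose, against 25.6%, while 19 did not pass. At an unadjusted p under 0.05, 12 were lower, against 17.9% of all genes, and 10 higher, against 31.3%. The median log2 fold change of the members was -0.02, and that of all tested genes was 0.07. Both SGC-CBP30 libraries lay below both DMSO libraries for 16 members and above them for 12, where the same held for 27.2% and 45.9% of all genes. No member was called with both compounds. Of the 16 members that passed the adjusted p, 15 no longer did with all 4 DMSO libraries as controls, and SHMT1 was the exception. Pooling these libraries adds any gap between the DMSO pairs to the spread, so a lost pass need not be a smaller change. PFAS went from -0.24 to -0.04 (adjusted p = 0.882 from limma), but RRM2 went from 0.18 to 0.38 (adjusted p = 0.0862). The share of all tested genes that lost the pass was not counted.

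The difference between the compounds was tested directly, as the log2 fold change with SGC-CBP30 minus that with CPI203. It was called for 15 of 35 members, where 24.5% of all tested genes were called, and it passed the adjusted p alone for 27, where 50.3% did. In 13 of the 15 the fold change was higher with SGC-CBP30, and in RRM2 and RRM2B it was lower. Of the 15 members called with CPI203, 13 were also called for the difference, and 2 others, CTPS1 and PPAT, were called for the difference alone. The 8 members whose difference did not pass were ADA, IMPDH2, RRM1, TYMS, APRT, DCK, GUK1 and NME2.

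**Figure D1:**
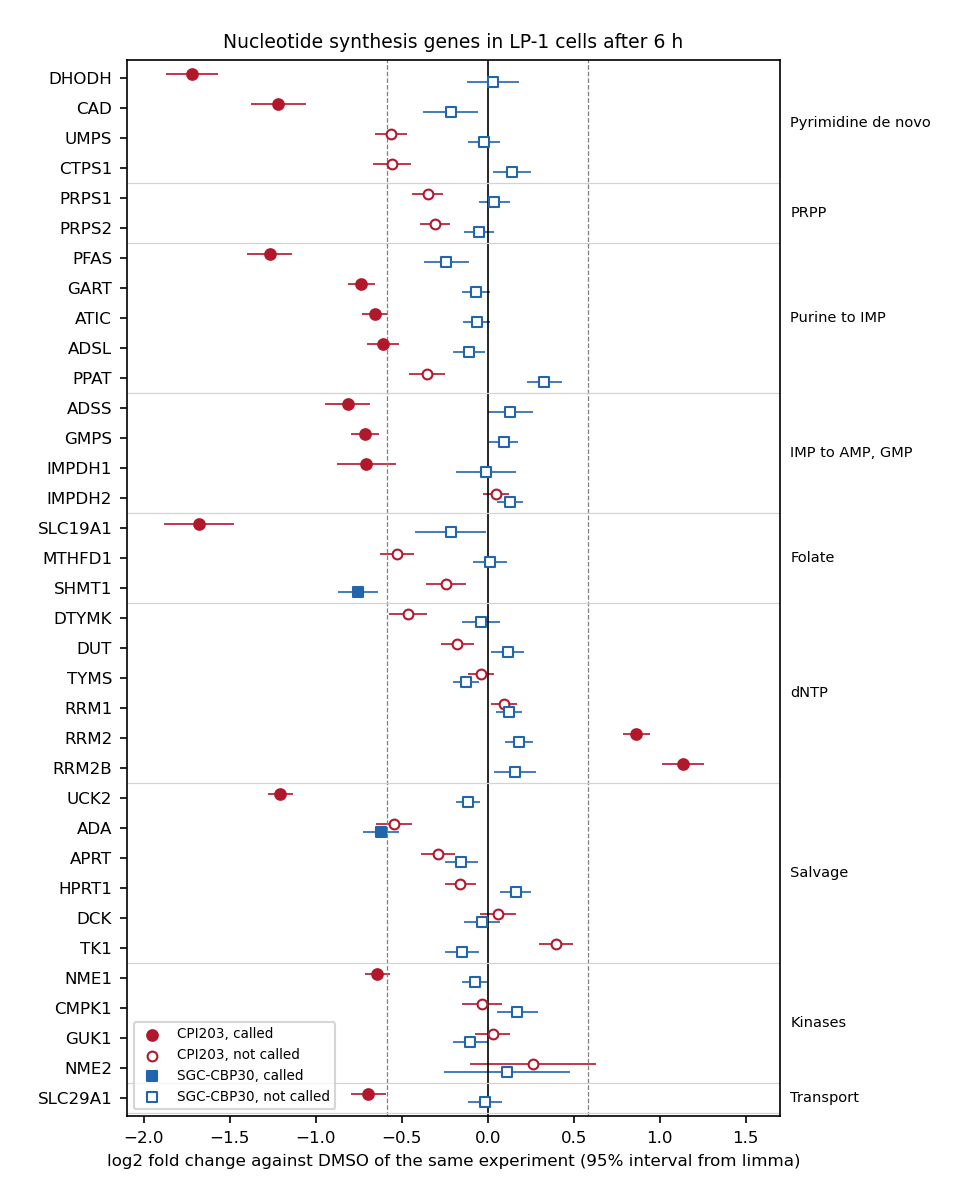
Log2 fold change against the DMSO libraries of the same experiment (x axis, with the 95% interval from limma) for the 35 tested members grouped by role, with CPI203 as circles, SGC-CBP30 as squares, called members filled and dashed lines at 1.5-fold. CPI203 reaches -1.72 for DHODH and 1.14 for RRM2B, while the SGC-CBP30 values lie between -0.75 and 0.33.

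In pyrimidine synthesis all 4 tested members fell with CPI203 by the adjusted p, where 33.1% of all tested genes did. The largest fall of all 35 members was that of DHODH. DHODH (chr16:72042486-72058954 in hg19, the build of the deposited positions), the mitochondrial enzyme that makes orotate, measured 23.0 and 24.4 RPKM with DMSO and 7.54 and 6.73 with CPI203. It fell by 1.72 on the log2 scale (SE 0.067, adjusted p = 4.01e-08), to 0.301 times the DMSO mean. In the SGC-CBP30 experiment DHODH measured 21.1 and 20.7 RPKM with DMSO and 21.0 and 21.6 with the compound, and these libraries overlapped (log2 fold change 0.03, adjusted p = 0.738). The difference between the compounds was 1.75 (SE 0.095, adjusted p = 1.01e-06). CAD (chr2:27440257-27466811), which catalyses the opening steps of the pathway, measured 30.4 and 30.9 RPKM with DMSO and 12.1 and 14.2 with CPI203. It fell by 1.22 on the log2 scale (SE 0.071, adjusted p = 4.23e-07). CAD was also the member with the largest gap between the DMSO pairs, at 49.2 and 50.9 RPKM in the SGC-CBP30 experiment, where the compound gave 44.3 and 41.9. That decrease passed the test at a log2 fold change of -0.22 (adjusted p = 0.0358), but against all 4 DMSO libraries the value was 0.14. The difference between the compounds for CAD was 1.00 (SE 0.10, adjusted p = 3.31e-05).

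UMPS and CTPS1 stayed just short of 1.5-fold, although both were called against all 4 DMSO libraries, at -0.60 (adjusted p = 4.64e-05) and -0.62 (adjusted p = 0.000125). UMPS, which converts orotate to UMP, measured 58.4 and 58.9 RPKM with DMSO and 40.1 and 39.3 with CPI203, a log2 fold change of -0.56 (adjusted p = 1.90e-06). CTPS1, which makes CTP from UTP, measured 63.9 and 70.8 RPKM with DMSO and 46.3 and 44.9 with CPI203, and it too changed by -0.56 (adjusted p = 5.87e-06). Without the first DMSO library of that experiment CTPS1 was at -0.63 and was called. With SGC-CBP30 the levels of CTPS1 were 80.9 and 81.2 RPKM against 74.0 and 73.1 with DMSO, a log2 fold change of 0.14 (adjusted p = 0.0457). The compounds therefore differed by 0.70 for CTPS1 (SE 0.069, adjusted p = 3.18e-05). UMPS measured 62.2 and 59.2 RPKM with SGC-CBP30 and 60.5 and 63.0 with DMSO, which overlapped. CTPS2, the paralogue of CTPS1, was at or under 0.098 RPKM in every library, so CTP synthase RNA in these cells was almost entirely CTPS1.

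PRPS1 and PRPS2 make PRPP, the sugar donor of both pathways. With CPI203 they changed by -0.35 (adjusted p = 3.83e-05) and -0.31 (adjusted p = 8.26e-05) on the log2 scale. PRPS1 measured 55.6 and 57.0 RPKM with DMSO and 43.7 and 44.7 with CPI203, so the libraries did not overlap although the change was under 1.5-fold. PRPS2 went from 50.6 and 51.5 RPKM to 41.8 and 40.8. PRPS1 contributed 51.2% to 53.9% of their summed RPKM in every library, and neither gene passed the test with SGC-CBP30 (log2 fold changes 0.04 and -0.05).

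On the path to IMP all 5 tested members fell with CPI203 by the adjusted p, where 33.1% of all tested genes did. Of the 5, 4 were called lower, where 14.4% of all tested genes were. PFAS (chr17:8150935-8173809), which converts formylglycinamide ribonucleotide to its amidine, measured 48.4 and 47.3 RPKM with DMSO and 20.8 and 18.8 with CPI203. It fell by 1.27 on the log2 scale (SE 0.058, adjusted p = 9.68e-08). With SGC-CBP30 it measured 55.9 and 51.7 RPKM against 64.6 and 62.5 with DMSO, a log2 fold change of -0.24 that passed the test (adjusted p = 0.0089). The compounds differed by 1.03 for PFAS (SE 0.081, adjusted p = 8.12e-06). GART (chr21:34876237-34915797), which catalyses several steps of the pathway, measured 95.3 and 97.3 RPKM with DMSO and 59.1 and 56.6 with CPI203 (log2 fold change -0.73, SE 0.036, adjusted p = 1.52e-07). With SGC-CBP30 GART measured 98.2 and 96.0 RPKM against 102.0 and 101.5 with DMSO, and the change did not pass the test (adjusted p = 0.166). ATIC (chr2:216176539-216214487), which closes the ring to give IMP, was the most abundant of these genes. It measured 186 and 181 RPKM with DMSO and 118 and 114 with CPI203 (log2 fold change -0.66, SE 0.034, adjusted p = 2.22e-07), and it measured 193.3 and 193.0 with DMSO against 181 and 189 with SGC-CBP30 (adjusted p = 0.164). The compounds differed by 0.67 for GART (adjusted p = 6.67e-06) and by 0.59 for ATIC (adjusted p = 9.73e-06). The call on the difference for ATIC was lost at 0.56 to 0.57 without the second SGC-CBP30, the second CPI203 or the first DMSO library of the CPI203 experiment.

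ADSL, PPAT and PAICS complete this branch. ADSL (chr22:40742506-40764823), which acts both before IMP and on the way to AMP, measured 91.8 and 89.2 RPKM with DMSO and 60.4 and 58.1 with CPI203. Its log2 fold change of -0.61 (SE 0.041, adjusted p = 1.07e-06) lay close to the threshold, and it was -0.57 under quantile normalization and against all 4 DMSO libraries, and -0.58 without the second CPI203 library, each of which ended the call. ADSL measured 82.8 and 88.0 RPKM with DMSO and 78.9 and 79.3 with SGC-CBP30 (log2 fold change -0.11, adjusted p = 0.0584). PPAT (chr4:57259527-57301781), which commits PRPP to purine synthesis, moved in opposite directions with the compounds. It measured 27.1 and 27.5 RPKM with DMSO and 21.1 and 21.5 with CPI203 (log2 fold change -0.35, adjusted p = 8.85e-05). In the other experiment it measured 24.5 and 23.6 RPKM with DMSO and 30.3 and 30.2 with SGC-CBP30 (log2 fold change 0.33, adjusted p = 0.000584), the largest increase of any member with that compound. The difference was 0.68 (SE 0.065, adjusted p = 2.47e-05). PAICS, the neighbour of PPAT on chromosome 4 (57301906-57327534), measured 86.2 and 85.5 RPKM in the CPI203 libraries and 123.8 in the 1 DMSO library of that experiment with a value. These values differ by -0.53 on the log2 scale. The 1 SGC-CBP30 library with a value had 113.7 RPKM and its DMSO library 116.3, which differ by -0.03. With 1 library in 3 of its 4 groups, no test is given for PAICS.

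**Figure D2:**
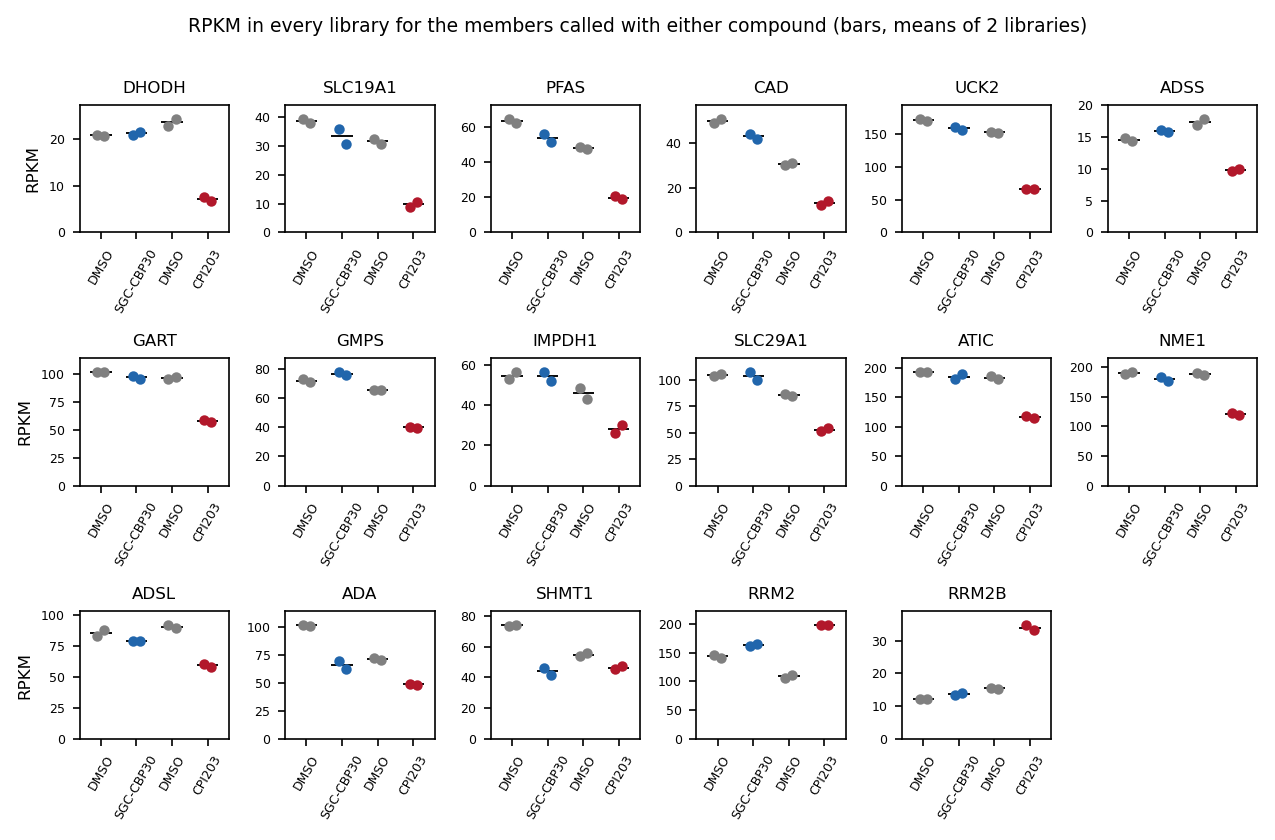
RPKM (y axis, from 0) in each of the 8 libraries for the 17 members called with either compound, where each point is a library and each bar the mean of 2, with the SGC-CBP30 experiment left and the CPI203 experiment right. DHODH falls from 23.0 and 24.4 to 7.54 and 6.73 with CPI203, RRM2B climbs to 34.9 and 33.2, and SHMT1 and ADA are lower with SGC-CBP30.

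Beyond IMP, 3 of 4 members were called lower with CPI203, where 14.4% of all tested genes were, and IMPDH2 was not. ADSS (chr1:244571795-244615436), which directs IMP to AMP, measured 16.9 and 17.9 RPKM with DMSO and 9.73 and 9.96 with CPI203 (log2 fold change -0.81, SE 0.058, adjusted p = 1.52e-06). In the SGC-CBP30 experiment ADSS went from 14.8 and 14.4 RPKM to 16.2 and 15.8, which did not pass the test (adjusted p = 0.102), and the compounds differed by 0.94 (adjusted p = 1.43e-05). GMPS (chr3:155588324-155658457), which makes GMP, measured 65.4 and 66.0 RPKM with DMSO and 40.4 and 39.7 with CPI203 (log2 fold change -0.71, SE 0.037, adjusted p = 2.17e-07). It measured 73.0 and 71.3 RPKM with DMSO and 78.1 and 75.7 with SGC-CBP30 (adjusted p = 0.0743), and the compounds differed by 0.81 (adjusted p = 2.75e-06). IMPDH1 and IMPDH2 encode the enzymes that turn IMP towards GMP. IMPDH1 (chr7:128032330-128050306) measured 48.4 and 43.1 RPKM with DMSO and 26.1 and 29.9 with CPI203 (log2 fold change -0.71, SE 0.077, adjusted p = 2.68e-05). With SGC-CBP30 it measured 56.4 and 52.0 RPKM against 52.9 and 56.3 with DMSO, which overlapped, and the compounds differed by 0.70 (adjusted p = 0.000561). IMPDH2 measured 238 and 233 RPKM with DMSO and 246 and 241 with CPI203 (log2 fold change 0.05, 95% interval -0.03 to 0.12, adjusted p = 0.248). IMPDH1 therefore gave 16.9% and 15.6% of the summed IMPDH RPKM with DMSO and 9.60% and 11.0% with CPI203, while the sum stayed between 271 and 286 RPKM in these 4 libraries. With SGC-CBP30 IMPDH2 rose from 218 and 231 RPKM to 246.2 and 245.5 (log2 fold change 0.13, adjusted p = 0.0133).

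Among the folate genes the importer and not the enzymes was called with CPI203, and 1 enzyme was called with SGC-CBP30. SLC19A1 (chr21:46913485-46964325), the reduced folate carrier, measured 32.4 and 30.5 RPKM with DMSO and 8.96 and 10.6 with CPI203. It fell by 1.68 on the log2 scale (SE 0.091, adjusted p = 2.75e-07), to 0.311 times the DMSO mean, and came next to DHODH in size. In the SGC-CBP30 experiment it went from 39.3 and 37.8 RPKM to 35.9 and 30.6, which did not pass the test (log2 fold change -0.22, adjusted p = 0.0858). The compounds differed by 1.46 for SLC19A1 (SE 0.13, adjusted p = 1.53e-05). MTHFD1, which supplies formyl groups for the purine ring, measured 40.8 and 40.3 RPKM with DMSO and 28.9 and 27.3 with CPI203 (log2 fold change -0.53, adjusted p = 3.96e-06), and it was 0.01 with SGC-CBP30 (adjusted p = 0.840). Against all 4 DMSO libraries the CPI203 value of MTHFD1 was -0.66 (adjusted p = 0.000567), which was called.

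SHMT1 and ADA were the members called with SGC-CBP30. SHMT1 (chr17:18231186-18266856), the cytosolic enzyme that loads folate with the carbon of serine, measured 73.7 and 74.2 RPKM with DMSO and 46.2 and 41.6 with SGC-CBP30. It fell by 0.75 on the log2 scale (SE 0.052, adjusted p = 9.26e-06). In the CPI203 experiment it measured 53.8 and 55.8 RPKM with DMSO and 45.5 and 47.2 with the compound (log2 fold change -0.24, adjusted p = 0.00247). The difference of -0.51 (SE 0.074, adjusted p = 0.000324) passed the test but was under 1.5-fold. ADA (chr20:43248162-43280874), which deaminates adenosine and deoxyadenosine, measured 101.5 and 100.9 RPKM with DMSO and 69.0 and 62.6 with SGC-CBP30 (log2 fold change -0.62, SE 0.047, adjusted p = 1.69e-05). It measured 72.0 and 70.0 RPKM with DMSO and 49.1 and 48.3 with CPI203 (log2 fold change -0.54, adjusted p = 5.53e-06). The difference for ADA was -0.08 with a 95% interval of -0.23 to 0.07 (adjusted p = 0.361), so ADA fell with both compounds and a difference of 1.5-fold lies outside this interval. Both DMSO means were lower in the CPI203 experiment. Against all 4 DMSO libraries the SGC-CBP30 values were -0.54 for SHMT1 (adjusted p = 0.0443) and -0.37 for ADA (adjusted p = 0.167), which ended both calls, while the CPI203 value of ADA was -0.80 (adjusted p = 0.00395), which was called. Without the second SGC-CBP30 library 1 member was called in place of 2, since ADA was then at -0.55.

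The dNTP genes held the only increases of 1.5-fold. RRM2 (chr2:10262454-10271545), the small subunit of ribonucleotide reductase used in S phase, measured 106 and 111 RPKM with DMSO and 198.0 and 197.5 with CPI203. It rose by 0.86 on the log2 scale (SE 0.036, adjusted p = 5.64e-08). RRM2B (chr8:103216729-103251346), the small subunit induced by p53 and used outside S phase, measured 15.5 and 15.4 RPKM with DMSO and 34.9 and 33.2 with CPI203. It rose by 1.14 (SE 0.054, adjusted p = 1.30e-07), to 2.21 times the DMSO mean. RRM1, the large subunit that pairs with either, measured 67.1 and 67.2 RPKM with DMSO and 72.5 and 70.9 with CPI203, and its small increase passed the test (log2 fold change 0.09, adjusted p = 0.0326). Against all 4 DMSO libraries RRM1 was at -0.01. RRM2B made up 12.8% and 12.1% of the summed RPKM of both small subunits with DMSO and 15.0% and 14.4% with CPI203, and the sum rose from 121 and 127 RPKM to 233 and 231.

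With SGC-CBP30 all 3 subunits rose by less than 1.5-fold, although RRM2B was at -0.0088 against all 4 DMSO libraries. The median log2 fold change of all tested genes with this compound was itself 0.07. RRM2 measured 146 and 141 RPKM with DMSO and 161 and 165 with the compound (log2 fold change 0.18, adjusted p = 0.00332). RRM2B measured 12.3 and 12.2 RPKM with DMSO and 13.4 and 13.9 with SGC-CBP30 (log2 fold change 0.16, adjusted p = 0.0428), and RRM1 measured 78.3 and 77.7 against 84.3 and 85.7 (log2 fold change 0.12, adjusted p = 0.0172). The difference between the compounds was -0.68 for RRM2 (SE 0.051, adjusted p = 5.58e-06) and -0.98 for RRM2B (SE 0.077, adjusted p = 7.64e-06). For RRM1 it was 0.03, with a 95% interval of -0.08 to 0.14 (adjusted p = 0.648).

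The thymidylate genes did not share the increase of the reductase subunits. TYMS, which makes dTMP, was among the most abundant members at 201 and 207 RPKM with DMSO and 203 and 194 with CPI203, which overlapped (log2 fold change -0.04, adjusted p = 0.314). DUT, which supplies dUMP to TYMS, fell from 104.9 and 103.7 RPKM to 89.9 and 94.6 (log2 fold change -0.18, adjusted p = 0.00494). DTYMK, which phosphorylates dTMP, fell from 71.8 and 69.4 RPKM to 49.2 and 53.3 (log2 fold change -0.46, adjusted p = 2.21e-05), and it was called at -0.63 against all 4 DMSO libraries (adjusted p = 0.00228). With SGC-CBP30 TYMS changed by -0.12 (adjusted p = 0.0163), but it was at 0.04 against all 4 DMSO libraries, and DUT and DTYMK did not pass the test (log2 fold changes 0.12 and -0.04). TYMS overlaps ENOSF1 and C18orf56 in the annotation, whose means were 1.13 and 6.25 RPKM against 224 for TYMS.

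**Figure D3:**
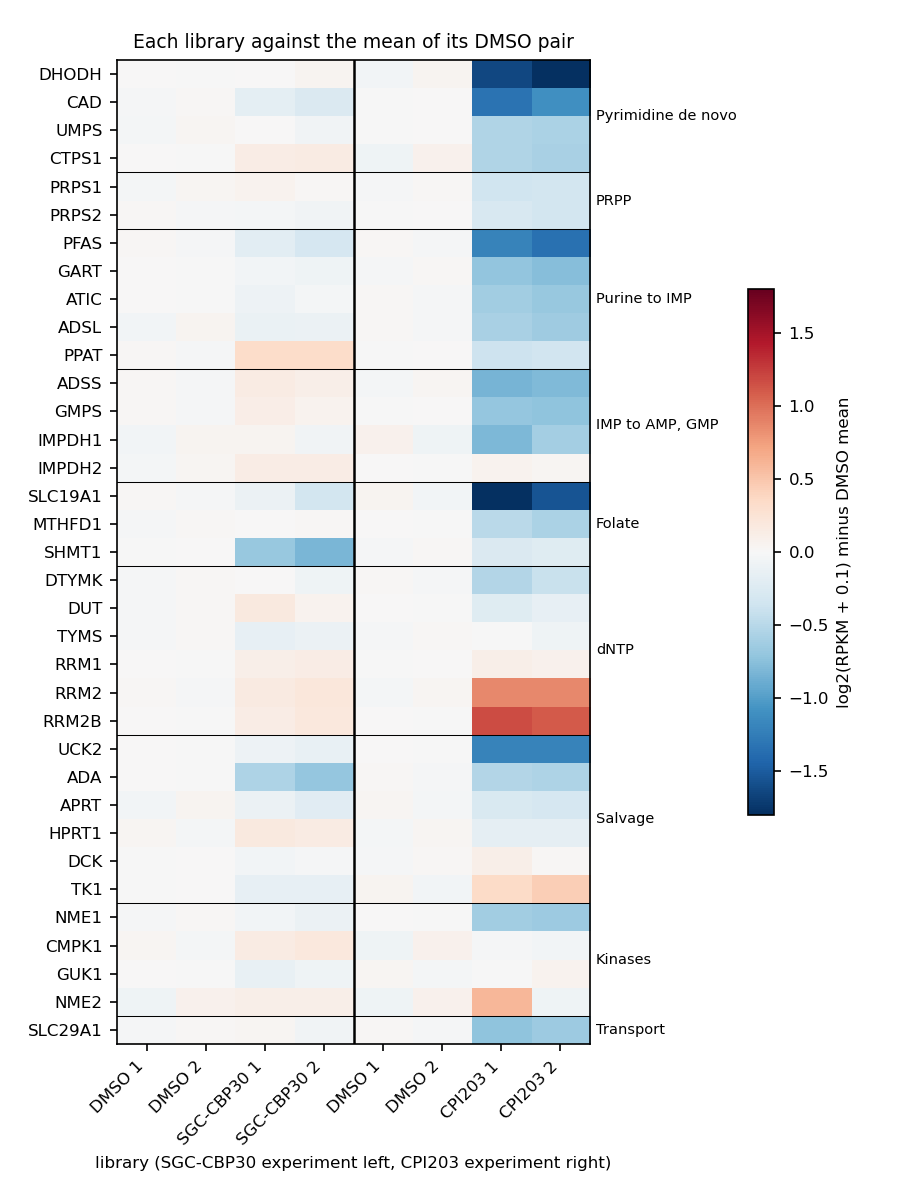
Log2(RPKM + 0.1) of each library minus the mean of the DMSO pair of its experiment (colour scale), with the 35 tested members as rows grouped by role and the 8 libraries as columns. Both CPI203 columns are blue for DHODH, CAD, PFAS, SLC19A1 and UCK2 and red for RRM2 and RRM2B, and NME2 differs between the CPI203 libraries (114 and 71.8 RPKM).

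The salvage genes were mixed. UCK2 (chr1:165796767-165880855), which phosphorylates uridine and cytidine, measured 154 and 152 RPKM with DMSO and 66.3 and 66.2 with CPI203. It fell by 1.21 on the log2 scale (SE 0.031, adjusted p = 4.01e-09). With SGC-CBP30 UCK2 measured 162 and 157 RPKM against 174 and 171 with DMSO (log2 fold change -0.11, adjusted p = 0.0181), and the compounds differed by 1.09 (SE 0.044, adjusted p = 2.44e-07). TK1, the cytosolic thymidine kinase of proliferating cells, moved the other way and rose from 82.4 and 77.0 RPKM to 101.7 and 108.2 with CPI203 (log2 fold change 0.40, adjusted p = 2.79e-05). It went from 110.9 and 112.2 RPKM to 100.2 and 100.7 with SGC-CBP30 (log2 fold change -0.15, adjusted p = 0.0215), and the difference was -0.55 (adjusted p = 7.16e-05). Against all 4 DMSO libraries TK1 was at 0.15 with CPI203 (adjusted p = 0.428) and at 0.09 with SGC-CBP30 (adjusted p = 0.718), and neither value passed.

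APRT and HPRT1 recover adenine, and hypoxanthine or guanine, respectively. APRT had the highest mean of the members, 264.6 RPKM, and fell with CPI203 from 281 and 270 RPKM to 227 and 224 (log2 fold change -0.29, adjusted p = 0.000245). It changed by -0.15 with SGC-CBP30 (adjusted p = 0.0201). HPRT1 fell with CPI203 from 79.3 and 83.3 RPKM to 72.9 and 72.7 (log2 fold change -0.16, adjusted p = 0.00543) and rose with SGC-CBP30 from 71.1 and 68.2 to 78.6 and 77.2 (log2 fold change 0.16, adjusted p = 0.00988). Neither value of HPRT1 passed against all 4 DMSO libraries, at -0.047 with CPI203 (adjusted p = 0.647) and 0.050 with SGC-CBP30 (adjusted p = 0.705). DCK, the kinase of deoxycytidine and of some purine deoxynucleosides, measured 32.5 and 33.4 RPKM with DMSO and 35.4 and 33.3 with CPI203, which overlapped, and it did not pass the test with either compound.

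Of the nucleotide kinases only NME1 was called. NME1 (chr17:49230896-49239789), a nucleoside diphosphate kinase, measured 191 and 187 RPKM with DMSO and 122.3 and 120.0 with CPI203 (log2 fold change -0.64, SE 0.033, adjusted p = 1.81e-07). With SGC-CBP30 it measured 184 and 177 RPKM against 189 and 192 with DMSO (adjusted p = 0.0908). Reads of NME1 can also be assigned to its neighbour NME2, to the read-through gene NME1-NME2 (mean 190.5 RPKM) and to the copy NME2P1 (mean 215 RPKM). Summed with them, the value for NME1 was -0.29 (adjusted p = 2.59e-05), which ended the call, as did quantile normalization at -0.58. NME2 measured 71.5 and 79.5 RPKM with DMSO, but 114 and 71.8 with CPI203, so its libraries disagreed (log2 fold change 0.26, 95% interval -0.10 to 0.63). It was called higher at 0.60 without the second CPI203 library and was at -0.07 without the first. GUK1, which phosphorylates GMP, had log2 fold changes of 0.03 with CPI203 and -0.10 with SGC-CBP30 (adjusted p = 0.586 and 0.0992). CMPK1, which phosphorylates UMP and CMP, was at -0.03 with CPI203 (adjusted p = 0.608) and rose by 0.17 with SGC-CBP30 (adjusted p = 0.0265).

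SLC29A1 (chr6:44187241-44201888), the equilibrative nucleoside transporter, fell with CPI203. It measured 87.2 and 84.5 RPKM with DMSO and 51.7 and 54.3 with CPI203 (log2 fold change -0.69, SE 0.045, adjusted p = 7.98e-07). In the SGC-CBP30 experiment it measured 103.7 and 106.2 RPKM with DMSO and 107.7 and 100.1 with the compound, which overlapped, and the compounds differed by 0.68 (adjusted p = 2.20e-05). SLC29A2, its paralogue, stayed at or under 0.091 RPKM in every library.

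Other annotated copies of members were measured at 1 RPKM or more, among them PAICSP4 at a mean of 54.5 RPKM, GMPSP1 at 24.9, RRM2P3 at 17.7 and PPATP1 at 7.65. With such copies summed into their members, GMPS was at -0.74 and RRM2 at 0.87 with CPI203, and SHMT1 at -0.75 with SGC-CBP30. GART and SON, and UCK2 and TMCO1, share bases in the annotation at similar or higher levels of the neighbour (83.7 RPKM for SON and 219 for TMCO1), so a share of the reads at those overlaps is uncertain.

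Set against the promoter words above, members with CACGTG in a window had a lower median with CPI203 than other members with a window. The ranges overlapped, and this is a description without a test. ADSL, IMPDH2 and RRM2B were tested but had no window, so they are in neither set. Among the 8 tested members with a match, 5 were called lower (DHODH, ATIC, SLC19A1, NME1 and SLC29A1). Of all tested members 37.1% were called lower, and of all tested genes 14.4%, whatever their promoter. The share among all tested genes with CACGTG was not counted. The call on NME1 ended with copies summed or under quantile normalization. The 8 had a median log2 fold change of -0.65, with a range of -1.72 to 0.06. Among the 24 tested members without a match, 7 were called lower and 1 higher, where 13.4% of all tested genes were called higher. Their median was -0.33, with a range of -1.27 to 0.865. DCK and SLC19A1 held both an E-box and an E2F word, and their log2 fold changes with CPI203 were 0.06 and -1.68. CAD, PFAS and UCK2, each with a CPI203 change beyond 2-fold, held no CACGTG in these 300 bases. Of the 6 members with an E2F word, 2 were called lower, with a median of -0.24 and a range of -1.68 to 0.06. Of the 26 tested members without one, 10 were called lower and 1 higher, with a median of -0.54 and a range of -1.72 to 0.865.

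The wider pathways were followed with 69 further genes of folate metabolism, the pentose phosphate pathway, other nucleotide kinases, nucleotide breakdown and nucleoside transport, of which 54 were tested. With CPI203 14 (25.9%) were called lower, where 14.4% of all tested genes were, and 5 (9.26%) higher, where 13.4% were, with a median of -0.27. With SGC-CBP30 0 were called lower, where 3.79% of all genes were, and 3 (5.56%) higher, where 3.47% were, with a median of 0.01. At an unadjusted p under 0.05 from limma, SGC-CBP30 left 15 of the 54 (27.8%) lower, where 17.9% of all genes were, and 19 (35.2%) higher, where 31.3% were. Among the folate genes, SLC25A32, the mitochondrial folate carrier, fell from 53.0 and 53.4 RPKM to 26.2 and 27.8 with CPI203 (log2 fold change -0.97), and MTR, methionine synthase, was at -0.84. In the pentose phosphate pathway, RPIA, which makes the ribose phosphate used for PRPP, fell from 26.76 and 26.83 RPKM to 10.3 and 11.2 (log2 fold change -1.32). RPE, the epimerase of the same branch, was at -0.62. These values passed the adjusted p of limma with CPI203, and none of the 4 genes was called with SGC-CBP30.

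Other kinases and breakdown enzymes included genes that moved in opposite directions with the compounds. AK4, a mitochondrial adenylate kinase, fell from 6.72 and 6.77 RPKM to 1.94 and 2.43 with CPI203 (log2 fold change -1.59) and rose from 4.05 and 4.31 to 8.0 and 7.56 with SGC-CBP30 (log2 fold change 0.88). AMPD1, an AMP deaminase, fell from 15.2 and 14.0 RPKM to 6.59 and 6.10 with CPI203 (log2 fold change -1.19) and rose from 6.29 and 6.13 to 11.8 and 11.7 with SGC-CBP30 (log2 fold change 0.90). The difference between the compounds was 2.47 for AK4 (adjusted p = 2.76e-06) and 2.10 for AMPD1 (adjusted p = 7.49e-07). The DMSO levels of both genes were higher in the CPI203 experiment than in the other. NME6 and NME4 were at -1.18 and -0.59 with CPI203, and TK2, the mitochondrial thymidine kinase, rose by 0.76. AMPD2 and DCTPP1, which breaks down dCTP, were at -1.54 and -1.22. NT5C3A, a pyrimidine nucleotidase, rose by 0.65 with CPI203.

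A list of 20 S phase genes was measured beside the members. With CPI203 0 were called lower, where 14.4% of all genes were, and 2 higher, where 13.4% were, with a median log2 fold change of -0.01. With SGC-CBP30 1 was called lower, where 3.79% of all genes were, and 0 higher, where 3.47% were, with a median of 0.11. At an unadjusted p under 0.05 from limma, 5 (25%) were lower and 7 (35%) higher with CPI203, against 34.7% and 32.6% of all genes. With SGC-CBP30 1 (5%) was lower and 11 (55%) higher, against 17.9% and 31.3%. The part of cell cycle position in the results was not tested.

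**Figure D4:**
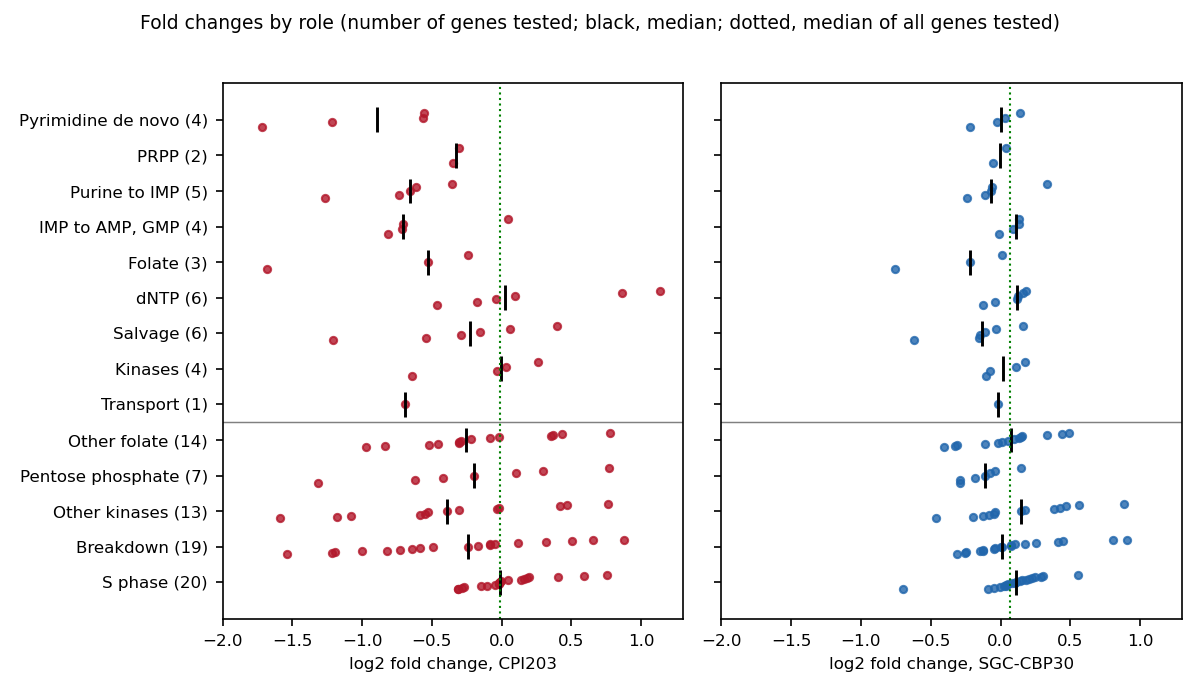
Log2 fold change (x axis) of the tested genes with CPI203 (left) and SGC-CBP30 (right) by role, with members above the grey line and the wider pathway lists and S phase genes below it, where each point is a gene, each black bar the median of a list and the dotted line the median of all tested genes. With CPI203 the medians are -0.89 for pyrimidine synthesis, -0.66 for the path to IMP, -0.71 beyond IMP, 0.03 for the dNTP genes and -0.01 for the S phase genes.

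By role, the median log2 fold change with CPI203 was -0.89 over the 4 pyrimidine synthesis genes, -0.66 over the 5 genes of the path to IMP, -0.71 over the 4 genes beyond it and -0.53 over the 3 folate genes. It was 0.03 over the 6 dNTP genes, -0.22 over the 6 salvage genes and -0.0014 over the 4 kinases. The same medians with SGC-CBP30 lay between -0.22 for the folate genes and 0.12 for the dNTP genes. The members were abundant, with a median level of 66.9 RPKM, from 14.4 for ADSS to 264.6 for APRT, where all tested genes had a median of 12.8. Between the DMSO pairs of the experiments, CAD and NME2 differed by at least 1.5-fold, and the log2 ratio of the members (CPI203 experiment over SGC-CBP30 experiment) lay between -0.71 and 0.33.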

How the data were processed

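The authors deposited 1 RPKM value per gene and library for 8 LP-1 libraries in 4 groups of 2, described as biological replicates. The submitters' processing notes name TopHat 1.4.1, Cufflinks and hg19. The gene annotation deposited with the table was used for symbols and positions, and 24 columns of other libraries were not used. Treated libraries were set against the DMSO libraries that share their naming series, so compound and experiment cannot be told apart where the compounds are compared. Values were converted to log2(RPKM + 0.1). Genes lacking a value in some library (27) were set aside, and the 14732 whose mean reached 1 RPKM were fitted with limma 3.58.1 in R 4.3.3 (4 group means, intensity trend, 4 residual and 5.48 prior degrees of freedom, two-sided, Benjamini-Hochberg over all genes tested). No count test was run, since only 61.2% to 73.2% of low single-exon values were within 0.1 of whole reads at the depth estimated. An exact permutation test of 2 against 2 libraries cannot go below 0.333 and was not used. The fit was tested on simulated data.

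The members and gene lists were chosen with earlier results of these data known. Every member was accounted for, with values in each library for those called with a compound or for the difference. From each wider pathway list up to 3 called genes per direction were named, those with the largest change, and a few that qualified are not reported here. The fit was repeated with 1 as the pseudocount, with a minimum mean of 5 RPKM or none, after quantile normalization or median scaling, with the 4 DMSO libraries together as controls, with a replicate block, with separate fits per experiment, without the trend, with other thresholds and with each library left out. Keeping genes with missing values, summing copies and crossing the block were added after seeing the data. Tables and figures used Python 3.11.15, pandas 2.3.3, numpy 2.4.6 and matplotlib 3.10.9.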

Additional observations from a re-analysis of the deposited data

How the results depend on the processing

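With CPI203 the 13 members called lower became 25 by the adjusted p alone, 5 at 2-fold and 17 against all 4 DMSO libraries, the 2 called higher became 4 and 1, and leaving out 1 library gave 12 to 14 lower and 2 to 3 higher. With SGC-CBP30 the 2 called lower became 8, 0 at 2-fold, 1 under quantile normalization and 0 against all 4 DMSO libraries, and 1 to 2 with a library left out. The 0 called higher became 8 by the adjusted p alone. The difference was called for 27 by the adjusted p alone and 5 at 2-fold, and for 14 to 16 with a library left out. At 2-fold, against all 4 DMSO libraries, under quantile normalization and with a library left out, the shares of all tested genes were not counted. Besides ATIC, calls on the difference changed for TK1 (gained without the first DMSO library of the CPI203 experiment or the first CPI203 library), SHMT1 (gained without the first SGC-CBP30 library) and NME1 (gained without the second). The CPI203 median of -0.46 became -0.57 against all 4 DMSO libraries and -0.40 with copies summed (-0.488 to -0.406 with a library left out). The SGC-CBP30 median became -0.10 under median scaling and 0.026 against all 4 DMSO libraries (-0.0595 to 0.0107 with a library left out).

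These fold changes turned sign. Against all 4 DMSO libraries, the CPI203 values were -0.013 for RRM1, -0.079 for GUK1, 0.11 for CMPK1 and -0.038 for NME2, and the SGC-CBP30 values were 0.14 for CAD, -0.060 for DHODH, 0.012 for UMPS, 0.12 for IMPDH1, -0.0088 for RRM2B, 0.043 for TYMS, 0.092 for TK1, 0.0062 for GUK1, 0.13 for DTYMK and 0.13 for SLC29A1. Under median scaling the SGC-CBP30 values were -0.045 for DHODH, -0.038 for PRPS1 and -0.064 for MTHFD1. Under quantile normalization they were -0.023 for DHODH, 0.0039 for GART, 0.022 for ATIC, 0.014 for DTYMK, 0.021 for NME1 and 0.062 for SLC29A1, and CMPK1 was at 0.005155 with CPI203. With a library left out, the CPI203 values were -0.011 to 0.072 for GUK1, -0.10 to 0.038 for CMPK1 and -0.071 to 0.60 for NME2. The SGC-CBP30 values were then -0.059 to 0.011 for UMPS, -0.069 to 0.048 for IMPDH1, -0.008754 to 0.035 for MTHFD1, -0.084 to 0.00071 for DTYMK and -0.068 to 0.037 for SLC29A1. The causes were not tested.

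The authors describe their DMSO controls as paired with the treated samples, but the labels do not say which libraries form a pair. The main fit used no pairing. In each experiment 2 pairs of libraries share a replicate number, and same-numbered libraries did not deviate together (r = -0.096 and 0.0086 across genes). The replicate block left 13 and 2 members called with CPI203 and 2 with SGC-CBP30, and over all genes it called 4120 with CPI203 and 1057 with SGC-CBP30, against 4095 and 1070 without it. With the numbers crossed these counts were 4115 and 1085. CTPS2 and SLC29A2 were left out by the minimum mean of 1 RPKM. NME2 was under 1.5-fold at a log2 fold change of 0.26 with CPI203, and its CPI203 libraries disagreed. Missing values kept PAICS out of the test.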
